A study of Mus musculus with 3 samples.

Results

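Nuclear-encoded oxidative phosphorylation genes were followed in RNA of the nuclear fraction of lipid A-treated mouse macrophages. The rows were those of the gene table with symbols beginning Nduf followed by a, b, c, s or v, or beginning Uqcr, Cox4 to Cox8 or Atp5, without symbols ending in -ps or -ps and digits. The name rule took 94 of 55536 annotated genes, of which 90 were protein-coding and 4 were processed pseudogenes, and no measured value entered it. The rows held 93 symbols, since Atp5o stood under 2 identifiers. The rule also takes 8 complex I assembly factors, which are not subunits.

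All libraries came from bone-marrow-derived macrophages of C57BL/6J mice and from the nuclear fraction of these cells, described as nucleoplasmic in another field of the labels. Lipid A, the part of lipopolysaccharide that TLR4 recognises, was given at 100 ng/ml for 12 h, washed out for 12 h and given again at 100 ng/ml for 15 min. The 3 libraries form 1 group of biological replicates, and age and sex are not given. All carry the same donor identifier, and separate mice are not stated, so p-values measure only the spread between these samples, which may be technical. Replicate 2 was made from 500 ng of RNA and the other libraries from 1 µg. Without a second condition in these data, induction and repression by lipid A are not addressed.

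Oxidative phosphorylation moves electrons from NADH through complex I, coenzyme Q, complex III, cytochrome c and complex IV to oxygen, and complex V uses the resulting proton gradient to make ATP. The subunits come from both genomes: the nuclear genome encodes most of them, and the mitochondrial genome encodes a small hydrophobic set in complexes I, III, IV and V. Macrophages exposed to lipopolysaccharide are known for a shift of ATP production towards glycolysis.

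Depth was 19312032 to 23826101 expected counts per library over annotated genes. The 94 rows held 31153, 22634 and 26688 of these counts in replicates 1, 2 and 3, or 0.131%, 0.117% and 0.123%. All 10 macrophage markers were detected, with a TPM of at least 1 in each library, from Mertk at 54.5 ± 8.87 TPM to Ctsd at 1825 ± 141 TPM (SD, n = 3). None of 5 granulocyte, 5 T and NK cell, 3 B cell and 4 fibroblast markers was detected, and 1 of 4 erythroid markers was, Alas2 at 2.21 ± 0.896 TPM. Elane and Ncr1 had 0 counts in every library. In bulk RNA, fewer cells with a transcript and less of it per cell cannot be told apart.

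Most of the nuclear-encoded genes were detected in this nuclear fraction at moderate levels. Carry-over of RNA from outside the nucleus was not tested. Of the 94 rows, 83 were detected, comprising 82 protein-coding genes and the pseudogene Ndufb4c, and 5 rows had no counts. All 7 core subunits, 29 accessory subunits and 8 assembly factors of complex I were detected, as were all 8 complex III rows, 13 of 20 complex IV rows and 17 of 18 complex V rows. The rows summed to 1219, 1245 and 1190 TPM in replicates 1, 2 and 3, and to 0.583% ± 0.0258 of the TPM of nuclear protein-coding genes (SD, n = 3). The detected protein-coding members had a median level of 3.63 ± 0.03 on the log2(TPM + 1) scale, against 3.25 ± 0.10 for the 9421 detected nuclear protein-coding genes, and their median was the higher in 3 of 3 libraries. That difference was 0.38 ± 0.12 (log2, SD, n = 3), and it was 0.16 when means replaced medians. Levels spanned 61.5-fold among detected members, with 17 above 20 TPM and 15 under 5 TPM.

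Promoter letters are shown here because regulators of respiratory chain genes are known to bind such sites. Windows of 250 bases before and 50 bases after a start came from RefSeq (GRCm38.p6) and matched 69 of the 82 detected protein-coding members, with 1 window taken per gene. Both strands were searched for the NRF1 motif, whose letters are the capitals in Ndufs5 below with any base in place of the first letter of the G pair, for CCGGAAG of ETS factors such as GABP, for AAGATGGC of YY1 and for the TATA box letters TATAAA. Each motif was counted separately where motifs overlap. NRF1 letters stood in 16 of 69 member windows (23.2%), against 12.4% of the windows of 7693 detected protein-coding genes. YY1 letters stood in 10 member windows (14.5%), against 5.8% of all windows. The ETS letters were in 15 member windows (21.7%), against 21.9%, and the TATA letters in 5 (7.2%), against 6.9%. These shares describe letters in a window, and no binding was measured.

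The upstream 250 bases of 5 members are printed, each the most abundant of its class that holds NRF1, ETS or YY1 letters before the start and overlaps the annotated gene by at most 30 bases. This choice was made after the motif search, so the 5 are examples of motif-bearing promoters and not typical ones. No core subunit of complex I qualified. Capitals mark NRF1, ETS and TATA letters, in either orientation, and positions count back from -1, the base before the start.
Ndufs5, an accessory complex I subunit, chr4:123718187-123718436, minus strand, NRF1 letters from -98: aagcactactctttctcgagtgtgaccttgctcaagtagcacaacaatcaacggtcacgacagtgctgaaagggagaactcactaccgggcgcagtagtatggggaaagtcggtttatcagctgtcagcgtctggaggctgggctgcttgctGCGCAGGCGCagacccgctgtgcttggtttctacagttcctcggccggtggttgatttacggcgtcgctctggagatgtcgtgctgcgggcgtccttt
Ndufaf8, a complex I assembly factor, chr11:120098684-120098933, plus strand, ETS letters from -8: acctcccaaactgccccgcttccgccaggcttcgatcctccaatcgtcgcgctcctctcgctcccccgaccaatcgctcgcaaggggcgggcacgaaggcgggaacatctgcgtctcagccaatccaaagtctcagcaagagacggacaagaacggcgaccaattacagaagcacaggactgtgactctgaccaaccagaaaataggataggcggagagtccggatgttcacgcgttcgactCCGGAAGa
Uqcrh, the hinge subunit of complex III, chr4:116075071-116075320, minus strand, ETS letters from -10: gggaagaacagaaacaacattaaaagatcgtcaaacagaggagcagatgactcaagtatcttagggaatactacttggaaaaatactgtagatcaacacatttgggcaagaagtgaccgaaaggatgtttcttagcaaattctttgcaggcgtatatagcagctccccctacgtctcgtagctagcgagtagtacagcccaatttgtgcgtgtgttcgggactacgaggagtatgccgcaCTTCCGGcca
Cox6a1, a complex IV subunit, chr5:115348959-115349208, minus strand, NRF1 letters from -162 and -117 and ETS letters from -16: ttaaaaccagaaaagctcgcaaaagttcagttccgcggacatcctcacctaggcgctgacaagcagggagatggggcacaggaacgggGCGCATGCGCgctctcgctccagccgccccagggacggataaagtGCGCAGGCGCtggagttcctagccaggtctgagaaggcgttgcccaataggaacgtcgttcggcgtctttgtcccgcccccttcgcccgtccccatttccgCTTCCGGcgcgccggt
Atp5l, subunit g of complex V, chr9:44920743-44920992, minus strand, ETS letters from -212 and TATA letters from -122: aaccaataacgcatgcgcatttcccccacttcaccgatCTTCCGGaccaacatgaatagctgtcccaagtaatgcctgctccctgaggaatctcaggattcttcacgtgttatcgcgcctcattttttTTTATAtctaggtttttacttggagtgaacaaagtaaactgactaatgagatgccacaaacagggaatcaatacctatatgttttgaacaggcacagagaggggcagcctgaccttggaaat

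In all 10 members with YY1 letters the match reached past the start, whereas this held for 263 of the 443 windows with these letters among all genes. The letters, in capitals with 10 bases on each side, are printed for the most abundant member of each class in which this stretch lies within the window.
Ndufs7, a core subunit of complex I, chr10:80249463-80249490, plus strand, from position 25 after the start: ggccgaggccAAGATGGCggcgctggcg
Ndufa3, an accessory subunit of complex I, chr7:3617385-3617412, plus strand, from position 23: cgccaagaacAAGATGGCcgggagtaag
Ndufaf8, chr11:120098934-120098961, plus strand, from position 11: ggcagggcccAAGATGGCggcgccctcg
Atp5f1, subunit b of complex V, chr3:105959249-105959276, minus strand, from position -3, in the reverse orientation: tgtgcgagcgGCCATCTTgctcctgccc
The median level of members with ETS letters was 4.24 on the log2(TPM + 1) scale, against 3.41 for members without them. With NRF1 letters it was 3.68, against 3.43 without, and with YY1 letters it was 3.42, against 3.52 without. These medians are descriptions over genes and were not tested.

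Among detected genes complex I had the lowest median of the subunit classes, and its assembly factors lay lower still. The median log2(TPM + 1) was 3.39 ± 0.04 for the 36 subunits (SD, n = 3), 3.93 ± 0.08 for the 7 core subunits, which carry the flavin and the iron-sulphur clusters or the matrix-side fold around them, and 3.33 ± 0.05 for the 29 accessory subunits. By mean TPM the core list was led by Ndufs1 (chromosome 1 from 63143596 to 63176833 in mm10), the largest iron-sulphur subunit. It had 19.1, 23.4 and 18.5 TPM in replicates 1, 2 and 3 and was not the highest core gene in every library. Ndufs3, of the matrix arm, had 15.9, 16.2 and 18.1 TPM, below Ndufs1 in each library. Ndufs7, also of the matrix arm, had 13.5, 14.2 and 15.1 TPM. Ndufs8, which binds 2 iron-sulphur clusters in bacterial and mammalian complex I alike, was the lowest core subunit at 5.39, 6.32 and 7.40 TPM.

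Among accessory subunits, Ndufb8 of the membrane arm had the highest mean RSEM-format TPM, with 23.7, 23.9 and 18.5 TPM. Ndufa3 had 16.8, 26.9 and 19.1 TPM, above Ndufb8 in replicates 2 and 3, so their order was not stable. In the kallisto-format table Ndufab1 at 100.3 and Ndufa3 at 93.3 rescaled TPM both stood above Ndufb8 at 87.6. Ndufc2 had 16.7, 18.4 and 15.2 TPM. Ndufab1, the mitochondrial acyl carrier protein, which also serves lipoate and iron-sulphur cluster synthesis, had 14.1, 18.6 and 14.9 TPM. Ndufb6 was the lowest at 3.46, 2.76 and 3.25 TPM. The 29 accessory genes spanned 6.97-fold in mean TPM, against 3.19-fold for the 7 core genes.

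The 8 assembly factors, chaperones that build complex I without staying in it, had a median of 1.84 ± 0.11, which lay 1.54 ± 0.15 below the subunits (log2, SD, n = 3). None of the 8 exceeded the median of the detected protein-coding genes, whereas 22 of the 36 subunits did. Ndufaf3 had 3.70, 3.32 and 4.03 TPM, Ndufaf8 had 3.55, 3.22 and 3.68 TPM, and Ndufaf1 had 3.56, 3.88 and 2.98 TPM. Ndufaf4 varied more, with 2.93, 3.93 and 1.81 TPM. Ndufaf2 was lowest at 1.73, 1.01 and 1.21 TPM, from 28.2, 12.0 and 19.0 expected counts.

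Complex III stood above complex I by 0.66 ± 0.15 (log2, SD, n = 3). Uqcrh (chromosome 4 from 116066965 to 116075071), whose promoter is printed above, was its highest gene with 31.6, 32.3 and 39.0 TPM, each of them above every library of every other complex III gene. Uqcrb, a small subunit near the quinone pocket, had 17.33, 24.97 and 13.90 TPM. Uqcrc1, a core protein of the matrix side, had 17.34, 18.49 and 18.03 TPM, while its partner Uqcrc2 was the lowest member at 7.40, 8.24 and 6.39 TPM. The values of this pair did not overlap. Uqcr11 had 18.3, 18.2 and 17.1 TPM. Uqcrfs1, the Rieske iron-sulphur protein, had 9.59, 9.68 and 9.29 TPM, within a spread of 0.03 (SD of log2(TPM + 1)). Cyc1, the cytochrome c1 subunit, whose symbol the rule does not take, had 11.9, 9.25 and 12.0 TPM, and Cycs, cytochrome c itself, had 10.1, 7.05 and 10.4 TPM.

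Among detected genes, complex IV lay above complex I by 0.96 ± 0.20 and complex V by 0.88 ± 0.10 (log2, SD, n = 3). The first difference rested on leaving out the undetected paralogues: over all 20 complex IV rows it was 0.00 ± 0.19. Cox4i1 (chromosome 8 from 120668222 to 120674207), the largest nuclear-encoded subunit of complex IV, had 56.7, 46.1 and 53.1 TPM. Cox5a had 48.6, 30.4 and 42.4 TPM, lowest in replicate 2, where the other libraries stood well apart from it. Cox7c had 34.9, 38.6 and 34.7 TPM, and Cox6a1 had 28.8, 28.9 and 33.4 TPM. Cox6a2 was the lowest detected gene with 1.02, 1.76 and 1.14 TPM, from 17, 21 and 18 expected counts.

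Complex V held the highest level of all. Atp5b (chromosome 10 from 128083273 to 128090391), the catalytic beta subunit of ATP synthase, had 78.3, 84.8 and 78.1 TPM, above 96.1% of the detected protein-coding genes. Atp5a1, the alpha subunit that alternates with it in the catalytic ring, had 49.2, 47.3 and 46.8 TPM. In every library the beta gene lay above the alpha gene. Atp5mpl, a small membrane subunit, had 24.3, 35.0 and 26.3 TPM, and Atp5h, subunit d of the stalk, had 28.0, 25.4 and 22.6 TPM. Atp5l, whose promoter is printed above, had 26.0, 27.5 and 22.5 TPM. Atp5s, long known as coupling factor B, was lowest at 3.47, 4.24 and 3.86 TPM. The second identifier of Atp5o had 0 counts in each library, which allows up to 3 counts per library.

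**Figure D1:**
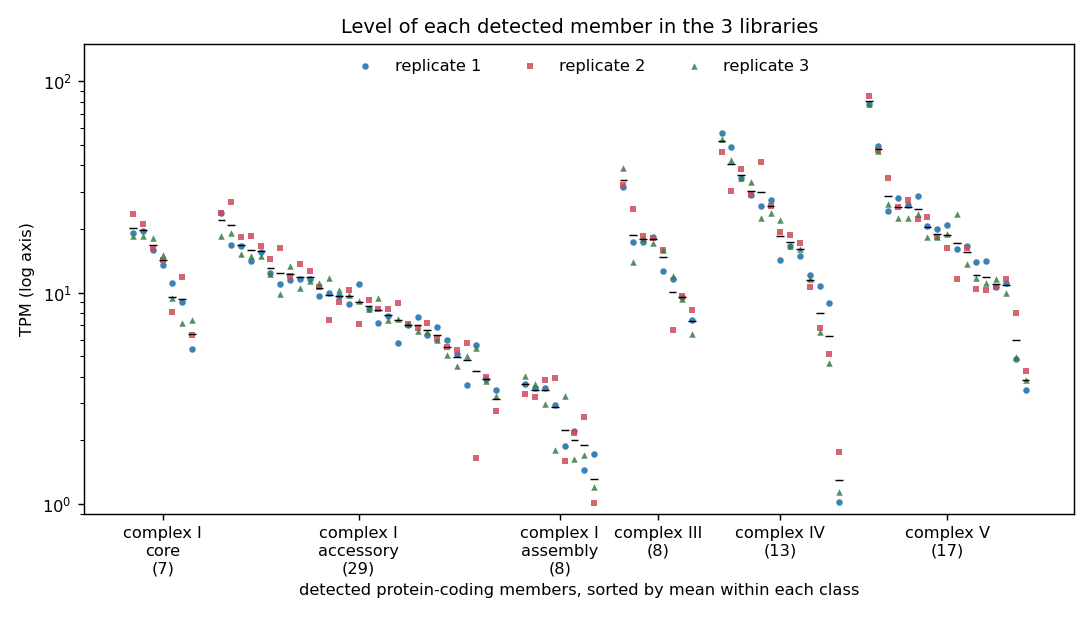
Each column is 1 of the 82 detected protein-coding members, sorted by mean within its class, and the vertical axis is TPM on a log scale, with 1 marker per library and a short line at the mean. Atp5b stands highest at 78.1 to 84.8 TPM, and the 8 complex I assembly factors lie between 1.01 and 4.03 TPM.

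In the Cox4i, Cox6a, Cox6b and Cox8 families, the form known from most tissues carried nearly all of the RSEM-format level, while the Cox7a family and the c ring were shared among genes. Cox4i2, the form induced by low oxygen and found in lung, had 0 counts in each library, against 998, 619 and 873 expected counts for Cox4i1. Cox7b2 and Cox8c, both known from testis, also had 0 counts, and each 0 allows up to 3 counts per library. Cox6a2, the heart and skeletal muscle form, made up 4.16% ± 1.38 of the summed TPM of its pair with Cox6a1 (SD, n = 3). Cox7a1, another muscle form, had 2, 3 and 1 expected counts and made up 1.17% ± 0.674 of its family. Cox6b2, a testis form, had 1, 0 and 3 counts beside Cox6b1 at 27.3, 25.7 and 23.7 TPM. Cox8b had 1, 0 and 0 counts beside Cox8a at 14.3, 19.4 and 22.2 TPM. These counts are at or under 3, so no fold is given for them. The kallisto-format table listed Cox4i2 at 1.12 ± 1.15 rescaled TPM, Cox7b2 at 0.186 ± 0.322 and Cox8c at 0 (SD, n = 3). It placed Cox7a1 at 8.86 ± 3.25 rescaled TPM and Cox8b at 3.44 ± 1.03, against 1.62 and 0.318 in the RSEM-format table.

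In the Cox7a family, Cox7a2l made up 59.5% ± 2.77 of the TPM and Cox7a2 39.4% ± 3.33 (SD, n = 3). Cox7a2l had 16.7, 18.7 and 16.6 TPM and Cox7a2 had 12.1, 10.6 and 11.6 TPM, without overlap. In the kallisto-format table the order was the opposite, with 65.4 rescaled TPM for Cox7a2l and 76.7 for Cox7a2. The Cox7a2l protein is known to link complex III and complex IV in supercomplexes, and C57BL/6 mice are known to carry a shortened form of it. Ndufa4, first assigned to complex I and later to complex IV and counted there here, had 10.7, 6.84 and 6.52 TPM. Its paralogue Ndufa4l2, a hypoxia-induced gene, had 1, 0 and 0 counts. AA467197, the mouse gene of a further NDUFA4-like protein known from inflamed macrophages, had 1.04, 1.03 and 1.83 TPM, from 21, 15 and 34 expected counts.

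The c ring of ATP synthase is encoded by Atp5g1, Atp5g2 and Atp5g3, which give the same mature protein. Atp5g3 had 28.8, 22.4 and 23.6 TPM, or 58.2% ± 2.80 of the family (SD, n = 3). Atp5g2 had 14.2, 10.3 and 11.1 TPM and Atp5g1 had 4.85, 7.99 and 4.99 TPM, so the order was the same in 3 of 3 libraries of the RSEM-format table. In the kallisto-format table the 2 lower genes were nearly level, with 24.2 ± 8.24 rescaled TPM for Atp5g2 and 24.7 ± 1.89 for Atp5g1 (SD, n = 3). After equal rescaling, the kallisto-format level of Atp5g2 was 0.423 times its RSEM-format level. Processed copies of such genes can share reads with them, and their part in this ratio was not tested. Expected counts were fractional in at least 1 library for Atp5g1 and Atp5g2 and whole for Atp5g3.

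**Figure D2:**
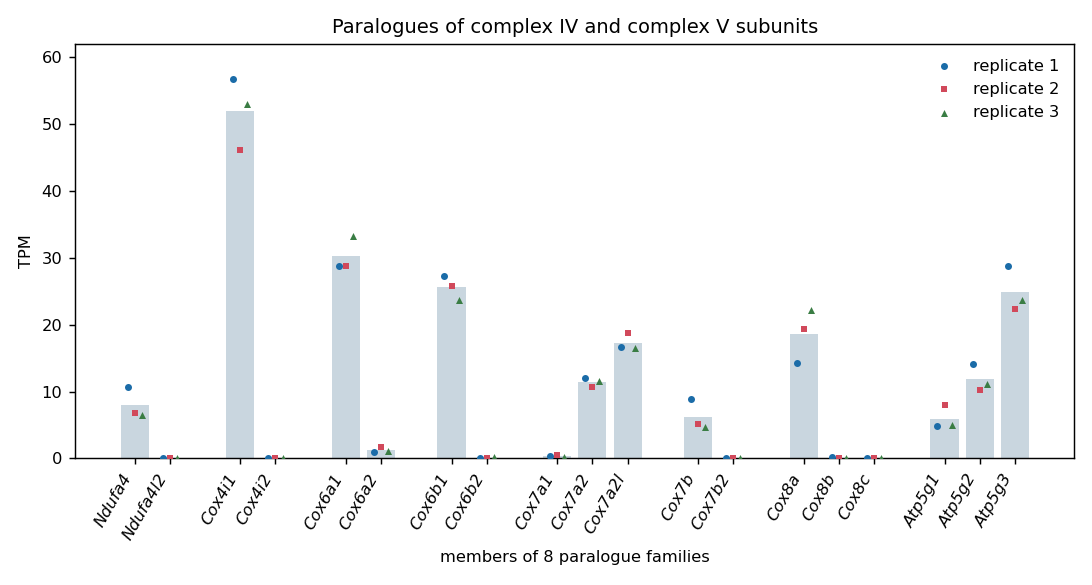
Bars give the mean TPM and markers the 3 libraries for the members of 8 families of paralogues. Cox4i1, Cox6a1, Cox6b1 and Cox8a hold at least 94.25% of their families in every library, while the c ring is shared among 3 genes.

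Genes of the same pathway outside the name rule are set beside the members here. Complex II, the succinate dehydrogenase that feeds electrons to coenzyme Q, stood at a median log2(TPM + 1) of 4.298 ± 0.035 (SD, n = 3). Sdha had 34.4, 50.9 and 44.2 TPM, Sdhb had 24.3, 20.5 and 25.2 TPM, Sdhc had 9.29, 17.7 and 13.0 TPM, and Sdhd had 14.6, 14.5 and 11.9 TPM. The 38 assembly factors outside the rule had a median of 2.56 ± 0.14, and the 32 detected among them one of 2.71 ± 0.13. They were led by Atpif1, the ATPase inhibitor, at 36.4 ± 9.08 TPM, while Pet117 had 0 counts. Of 13 regulators of respiratory chain genes 12 were detected. Esrra was their highest at 16.3 ± 1.86 TPM, and Ppargc1a, the coactivator PGC-1alpha of mitochondrial biogenesis in muscle and brown fat, had 0 counts in each library. Glycolysis genes had a median of 4.86 ± 0.19, from Pfkm at 1.20 ± 0.108 TPM to Hk3 at 191 ± 46.9 TPM. Cytosolic ribosomal protein genes had a median of 5.20 ± 0.13 and mitochondrial ribosomal protein genes 2.56 ± 0.08, against 3.54 ± 0.04 over all 90 protein-coding members.

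The libraries were compared by testing each against the others over all genes with edgeR's quasi-likelihood test and Benjamini-Hochberg adjustment, where a call is an adjusted p under 0.05. Of 83 members among the 14350 genes tested, 0 were called in replicate 1, 0 in replicate 2 and 0 in replicate 3, while 0.202%, 0% and 0.00697% of all genes were called. At an unadjusted p under 0.05, 0, 2 and 1 members stood out, or 0%, 2.41% and 1.20%, against 6.15%, 6.11% and 3.74% of all genes. DESeq2 also called 0 members in each comparison. The smallest unadjusted p was that of Cox5a, lower in replicate 2 by a log2 fold change of -0.83 ± 0.21 (SE), with an adjusted p of 0.773 by edgeR. On simulated counts for replicate 1 the test recovered 13 of 50 genes changed 2-fold and 47 of 50 changed 4-fold. The changed genes were drawn from those with a mean of at least 50 counts, so recovery is not known for rarer members such as Ndufaf2 and Cox6a2. Smaller folds and the other libraries were not simulated.

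The median log2 fold change of the members was 0.06 for replicate 1, -0.20 for replicate 2 and 0.07 for replicate 3, against -0.01, -0.01 and -0.02 over all genes. Replicate 2 is also the library with the lowest RNA input and depth and the largest mitochondrial share, and the part of these in the result was not tested. On TPM, which divides by a length adjusted in each library, replicate 2 was the highest of the 3 for 40 of 82 members and for 59.6% of detected protein-coding genes. The median effective length of the members was 532, 523 and 551 bases in replicates 1, 2 and 3.

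On deposited TPM, members varied little between libraries. Their median SD of log2(TPM + 1) was 0.15, against 0.20 for detected protein-coding genes, and 58 of 82 members (70.7%) lay below that background median. The unit mattered: the median level over all protein-coding members had an SD of 0.041 on TPM, 0.115 on rescaled TPM and 0.125 on FPKM. Single members were not compared with the background on the last 2 units. Ndufa8 had the smallest spread, with 7.03, 7.09 and 7.09 TPM, followed by Ndufb4 at 3.91, 3.98 and 3.81 TPM. The Ndufb4 values depend on an uncertain split of reads with the pseudogene Ndufb4c. The largest spread was that of Ndufc1, with 5.64, 1.65 and 5.48 TPM. Its expected counts of 42, 44 and 57 did not show the low value of replicate 2, and its share of TPM in retained-intron isoforms was 39.6%, 0% and 14.2%. Atp5k had 16.1, 11.6 and 23.5 TPM and Cox6c had 25.8, 41.7 and 22.5 TPM. On TPM, replicate 2 was the extreme library for Ndufc1 and Cox6c, and replicate 3 for Atp5k. The expected counts of Cox6c, 521, 444 and 399, did not peak in replicate 2. Its log2 fold change there was 0.13 ± 0.225 (SE) by edgeR. Across the 82 members Spearman's rho between libraries was 0.95 to 0.97, a description over genes of the same libraries.

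**Figure D3:**
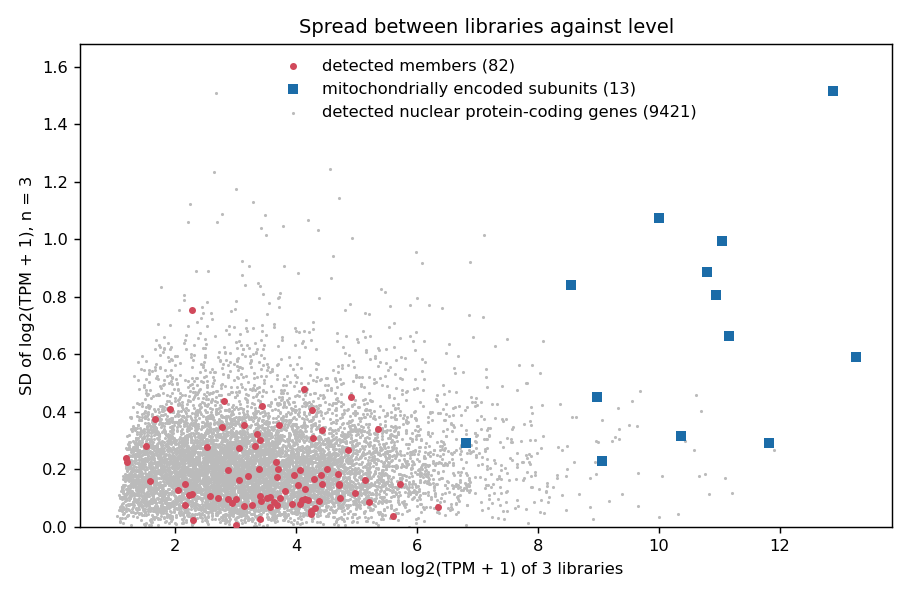
The horizontal axis is the mean log2(TPM + 1) and the vertical axis its SD over 3 libraries, for 82 detected members, 13 mitochondrially encoded subunits and 9421 detected nuclear protein-coding genes. Most members lie below the background median of 0.20, while mitochondrially encoded subunits have a median SD of 0.66.

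The mitochondrially encoded partners were far more abundant and far less even. The 13 of them summed to 36730, 56870 and 18680 TPM in replicates 1, 2 and 3, against 1186, 1215 and 1159 TPM for the 82 nuclear-encoded subunit rows. The summed ratio of mitochondrial to nuclear subunits was 31.0, 46.8 and 16.1. Replicate 2 was thus highest and replicate 3 lowest for the mitochondrial sum, while the nuclear-encoded sums of the 3 libraries lay close together. To the mitochondrial sum mt-Atp8 contributed 8459, 20113 and 2489 TPM and mt-Co1 11089, 13514 and 6152 TPM. TPM divides by length, and mt-Atp8 is short, from base 7766 to base 7969. Its expected counts were 6939, 11285 and 3075, against 536298, 464246 and 266860 for mt-Co1. By expected counts the 13 genes held 4.25%, 4.98% and 2.31% of each library, the same order with a narrower relative spread. The 82 nuclear-encoded rows held 0.127%, 0.114% and 0.120%. By complex, the mitochondrial median exceeded the nuclear median. The log2 excess was 7.61 ± 0.82 for complex I (SD, n = 3) and 6.98 ± 0.72 for complex III. It was 4.79 ± 0.43 for complex IV and 7.77 ± 1.56 for complex V. These mitochondrial medians rest on 7 genes for complex I, 3 for complex IV and 2 for complex V, and on mt-Cytb alone for complex III. The complex V pair lay far apart, since mt-Atp6 had 451, 596 and 194 TPM, well below mt-Atp8 in each library. The complex V value and its rank among the complexes therefore depend strongly on mt-Atp8. The complex IV value was highest in replicate 1, with 5.25, 4.73 and 4.39 in replicates 1, 2 and 3, and mt-Co2, mt-Co3 and mt-Nd4l were also highest in replicate 1. Mitochondrial RNA in a nuclear fraction can come with attached mitochondria or with reads of nuclear copies of mitochondrial DNA, and these tables do not separate such sources. Their part in the ratio was not tested.

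**Figure D4:**
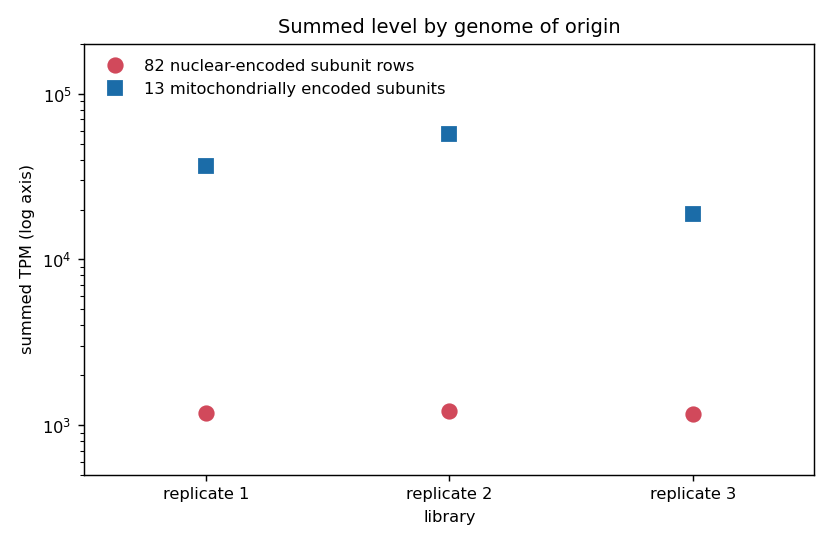
Circles give the summed TPM of 82 nuclear-encoded subunit rows and squares that of 13 mitochondrially encoded subunits in each library, on a log axis. The circles stay between 1159 and 1215 TPM, and the squares run from 18680 to 56870 TPM.

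Retained-intron isoforms, transcripts annotated as keeping an intron, took an uneven part of the members' levels. Nuclear RNA also holds unspliced precursors, which cannot be told apart here from such isoforms. Of the 82 detected protein-coding members 49 have such an isoform annotated, and their median share of gene TPM in it was 18.6% ± 1.41, against 24.0% ± 0.44 for 5980 detected genes with one (SD, n = 3). By expected counts the order was the opposite, 18.2% ± 1.02 for the members against 13.5% ± 0.12 for all. Complex IV had a low median of 6.85% ± 1.40 over 10 genes and complex I subunits one of 29.4% ± 3.64 over 21 genes. By expected counts these medians were 12.1% ± 1.02 for complex IV and 19.1% ± 3.31 for complex I subunits. Complex V, at 14.9% ± 0.905 by TPM, stood at 29.6% ± 4.61 by expected counts. A share of TPM depends on isoform lengths and a share of counts does not correct for them.

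The genes with the highest share were Ndufab1 with 72.1%, 83.9% and 82.9%, Ndufb4 with 68.8%, 83.7% and 68.2%, and Atp5j, coupling factor 6, with 69.2%, 71.1% and 63.5%. Cox6a1 was lowest with 1.67%, 2.22% and 2.37%, followed by Cox7a2l with 1.02%, 3.42% and 2.84% and Cox6b1 with 3.22%, 0% and 5.57%. A share above 50% was found in 5 genes and one under 10% in 14. Atp5j overlaps the opposite-strand gene Gabpa, and Ndufab1 overlaps the opposite-strand gene Gm44986. The use of strand in counting is not stated, so reads from such overlaps may not be separated. The most abundant Atp5j transcript, a retained-intron isoform on the minus strand, starts at 84831607 and lies outside Gabpa, which starts at 84834925. The share of Ndufb4 is also uncertain, because its fractional counts and those of the processed pseudogene Ndufb4c summed to whole numbers.

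**Figure D5:**
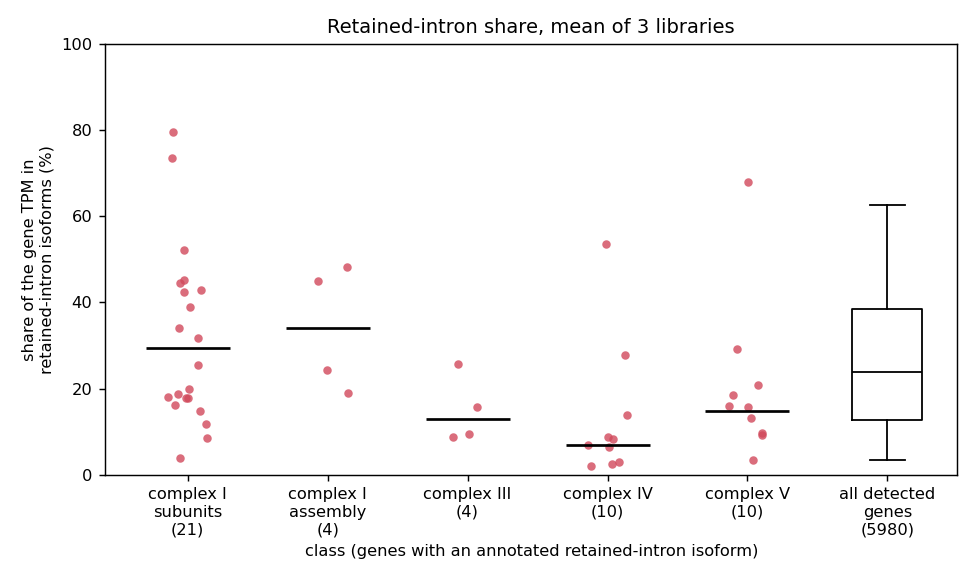
Points are genes with an annotated retained-intron isoform, placed at the mean percentage of their TPM in such isoforms over 3 libraries, lines are the means of the 3 library medians, and the box gives the quartiles with whiskers at the 5th and 95th percentiles for 5980 detected genes. Complex IV has its line at 6.85% and complex I subunits at 29.4%.

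The members were short, compact genes. Their median transcript length was 741 bases, against 2472 for detected protein-coding genes, their median span 7333 bp against 23780 bp, and the median number of exons of the most abundant transcript 4 against 8. Another protein-coding gene started within 1000 bp upstream on the opposite strand for 20 of 82 members (24.4%), against 11.5% of detected protein-coding genes. Ndufa7 and the ribosomal protein gene Rps28 start 10 bp apart, Ndufb9 and Tatdn1 18 bp apart, and Uqcrh and Lrrc41 198 bp apart. These counts were made after values had been seen and are descriptions.

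Several levels depend on how reads were assigned. Of the 94 rows 29 had fractional counts, 13 detected members overlap a gene on the same strand and 30 overlap one on the opposite strand. No share over all detected genes is given for these counts, so they do not set the members apart. Ndufb4 and the processed pseudogene Ndufb4c had fractional counts that summed to 152, 83 and 129, whole numbers within 0.001, and Ndufb4c was listed at 11.0, 7.79 and 9.87 TPM, so the split between them is uncertain. After both tables were scaled over nuclear protein-coding genes, the kallisto-format level exceeded the RSEM-format level over 1.5 times for 6 of 82 members. The ratio was 2.68 for Ndufs8, 2.04 for Cox7b and 1.68 for Ndufb2, and it was lowest for Atp5g2, followed by 0.668 for Ndufb4c and 0.723 for Atp5e. Ndufs8 is therefore the lowest core subunit of complex I only in the RSEM-format table, and the kallisto-format table places it at 81.6 rescaled TPM, above Ndufs7 at 76.2. Uqcrc2, the lowest complex III gene in the RSEM-format table, had 49.5 rescaled TPM in the kallisto-format table, above Uqcrfs1 at 34.6.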

How the data were processed

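Total RNA of the nuclear fraction, depleted of ribosomal RNA, was sequenced in 3 libraries of 1 group. Per the file headers and labels, the authors deposited gene and transcript tables in the RSEM format, with expected counts, TPM and FPKM, and a transcript table in the kallisto format, with estimated counts and TPM, for mm10 and GENCODE M21. The sources used here do not give the tools, their versions or the use of strand. Replicates were not pooled.

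Levels are deposited TPM, as log2(TPM + 1) where stated, and detection needs 1 TPM or more in every library. Rescaled TPM sums to 1000000 over nuclear protein-coding genes. TPM is a share of each library, so a larger share of other RNA lowers the TPM of a gene, all else equal. Nuclear protein-coding genes held 19.9%, 22.2% and 20.6% of TPM in replicates 1, 2 and 3. Their share was thus highest in replicate 2, which also had the largest mitochondrial sum. Expected counts were rounded to whole numbers, and each library was tested against the others with edgeR 4.0.16 (filterByExpr, TMM, quasi-likelihood test, Benjamini-Hochberg, 0.05) in R 4.3.3, after a check on simulated counts. DESeq2 1.42.0 was an alternative. Tables and figures were made with pandas 2.3.3, scipy 1.17.1, numpy 2.4.6 and matplotlib 3.10.9 under Python 3.11.15. Depth limits low genes: a count of 0 allows up to 3 counts, for counting error only.

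The members and lists were chosen with earlier results of these data known. Named were the 4 highest genes and the lowest of each class, the 3 at each end of spread, retained-intron share and kallisto-to-RSEM ratio, and all members of paralogue families. One gene that this rule names is not reported here. Atp5l, the gene pairs with neighbouring starts and Ndufb1-ps were named outside this rule, after their values were seen. Placing Ndufa4 and Ndufa4l2 in complex IV, a separate pseudogene class, detected genes as the base of differences, the overlap and start counts, and the printed sequences were chosen after seeing the data. So was the promoter of each gene: under the first rule tried, 67 members matched and NRF1 letters stood in 23.9% of their windows, ETS in 23.9%, YY1 in 14.9% and TATA in 7.5%, against 12.3%, 22.1%, 5.8% and 6.5% of all.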

Additional observations from a re-analysis of the deposited data

Results flagged for a closer look

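Ndufb1-ps, a row that the name rule leaves out because of its ending, held reads in every library, with a lowest expected count of 85. Its counts were 194, 85 and 181 in replicates 1, 2 and 3, and its level was 10.3, 6.54 and 10.3 TPM, within the range of the detected complex I subunits. It was looked at because it is a signal outside the rows that were compared.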

How the results depend on the processing

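Over the results that answer a comparison, 95 alternative values kept their direction and size, 11 moved by more than 1 SD and 2 reversed. Part of the 95 was fixed in advance. A mean with 1 of 3 libraries left out cannot move by more than 1 SD, and 0 calls against 0 calls counted as kept. The excess of detected members over detected protein-coding genes was 0.16 with means in place of medians, and 3.095 between all protein-coding members and all nuclear protein-coding genes without a filter, an alternative chosen after seeing the data (log2). Of the class differences from complex I subunits (log2), that of complex III was 0.45 in the kallisto-format table, that of complex IV was 0.004 over all rows, also chosen after seeing the data, and that of the assembly factors was -1.795 on rescaled TPM and -1.84 with a pseudocount of 0.1. The retained-intron share minus that of all genes, in percentage points, was 4.63 for the members and 16.01 for complex V by expected counts, both reversed, and -1.42 for complex IV. In the kallisto-format table it was -13.4 for complex IV, 1.94 for complex I and -10.3 for complex V. The log2 ratio of mitochondrial to nuclear complex IV was 6.43 in the kallisto-format table. The cause was not tested in any of these. Leaving out 1 library at a time, the excess of members was 0.345 to 0.452 and the complex IV difference 0.87 to 1.067. Of 56 named members, 38 moved by kallisto-format values, by more than 1 SD, 10 of them over 1.5 times. Members called numbered 0 under every alternative, while calls over all genes were 76, 18 and 33 with DESeq2, 0, 349 and 161 without a filter and 2, 0 and 1 with DESeq2 size factors, against 29, 0 and 1. With 1 library left out the tests have no residual degrees of freedom and give no value. No paired analysis was possible because the samples form 1 group.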
